A study of Homo sapiens with 2 samples.

Results

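Cadherins and progenitor surface adhesion molecules were examined in liver progenitors made from human embryonic stem cells. The 9 genes were chosen by symbol, as the rows of the deposited table whose Ensembl identifier belongs to CDH1, CDH2, CDH3, CDH6, CDH17, EPCAM, ALCAM, CTNND1 or JUP. All 9 were found among the 57158 genes of the table, each with 1 identifier. The cells were of the CyT49 line, an established human embryonic stem cell line. The single group of the series was grown in suspension with 50 ng/ml BMP4, 10 ng/ml FGF2 and 0.2% FBS from the definitive endoderm stage at day 2 until day 8. It was sequenced as 2 libraries of poly(A) RNA, so levels are described within 1 condition and 1 cell line, and no other condition is analysed here. Nothing in the labels says that the libraries came from separate cultures. They differed by 1.09 times the variance that counting alone gives, over 958 single-exon genes, and were counted as 1 sample, so the difference between them measures technical error and no test between conditions was possible.

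Cadherins are transmembrane proteins that bind the same cadherin on a neighbouring cell in the presence of calcium. Inside the cell, p120-catenin (CTNND1) binds the part of the tail next to the membrane and keeps the cadherin at the surface, while beta-catenin or plakoglobin (JUP) binds the end of the tail and links it through alpha-catenin to actin. Hepatocytes are unusual among epithelia in carrying both E-cadherin (CDH1) and N-cadherin (CDH2). EPCAM and ALCAM are adhesion molecules outside the cadherin family that are used to recognise immature liver cells.

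Levels are RPKM, reads scaled to gene length and to the depth of the library, which allows 1 gene to be compared with another. Every value under 0.5 RPKM is listed as 0.1 in the table and is described below as under 0.5. The depth worked out from the values was 25182072 reads in library 1 and 25263820 in library 2. At that depth a gene of 2000 bp reaches 0.5 RPKM with 25.2 reads. The label of the cells was checked against marker genes. All 8 liver progenitor markers reached 1 RPKM, with a summed level of 5878 RPKM in library 1 and 5879 in library 2. They were uneven, from APOA1 at 2188 RPKM on average down to ALB at 6.68. The 4 pluripotency markers and the 4 blood markers were all under 0.5. Among the markers of other cells, 4 of 8 mesenchymal, 1 of 4 measured endothelial, 2 of 6 intestinal, 1 of 4 pancreatic, 1 of 4 neural and 1 of 4 cardiac genes reached 1 RPKM. Their summed levels ran from 1.90 RPKM for endothelium to 40.3 RPKM for the neural list, where TUBB3 alone had 39.6. Besides TUBB3, the intestinal VIL1 (30.0 RPKM), pancreatic PDX1 (8.44) and mesenchymal COL1A1 (8.29) were above ALB.

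Of the 9 genes, 8 reached 1 RPKM in each library, which is called detected from here on, against 59.8% of 19344 protein-coding genes, and 7 reached 10 RPKM in both, against 20.2%. EPCAM was the highest at 123 RPKM, followed by CDH2 at 71.2, JUP at 62.6, CDH1 at 51.9, CTNND1 at 36.8, CDH6 at 24.2, CDH3 at 17.1 and ALCAM at 10.00. CDH17 was under 0.5 RPKM. The median of the 9 was 36.8 RPKM, beside 2.42 RPKM for all protein-coding genes and 6.60 RPKM for those detected.

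**Figure D1:**
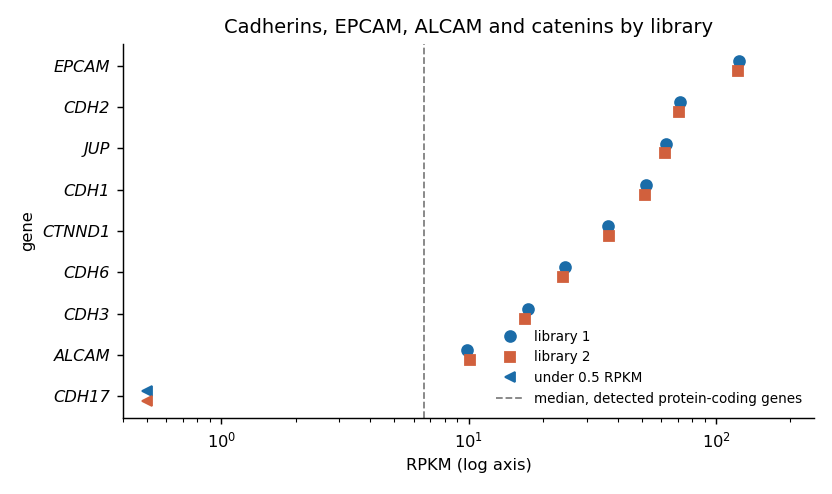
RPKM of each of the 9 genes (log axis) in library 1 (circles) and library 2 (squares), with arrows for values under 0.5 RPKM and a dashed line at the median of detected protein-coding genes (6.60 RPKM). The 8 detected genes lie to the right of the line, their 2 symbols almost on top of each other, and CDH17 lies at the left edge.

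The order of levels was the same in both libraries, and no neighbours in it overlapped. The closest neighbours, CDH2 and JUP, differed 1.14-fold. Of protein-coding genes at like levels (within a factor of 2), 95% differed less than 1.05-fold between the libraries. The widest step among detected genes was that from EPCAM to CDH2, 1.73-fold. All 7 steps between detected genes exceeded the spread of genes at like levels. They also depend on the gene length behind each RPKM, which could not be recovered for genes of several exons. Suppose the authors divided by the merged length of all annotated exons. If the longest transcript is used instead, CTNND1 (74.2 RPKM) passes CDH1 (65.6 RPKM) and the other 6 keep their places. This alternative was added after the data were seen. The opposite exchange was not run. It would lower CDH2 by 2.14 times, JUP by 1.41 times and CDH1 by 1.26 times, and so put CDH2 below JUP and CDH1. The order is therefore not settled.

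A pair of promoter windows is printed here and searched for the base motif CAGGTG (an E-box), which some CDH1 repressors named further below bind. CDH1 itself had no window, and whether these repressors act on ALCAM or CDH2 was not tested. The windows are the 250 bases before the annotated start, from RefSeq on GRCh38.p14, and 3 of the 9 genes (ALCAM, CDH2 and JUP) matched an entry, with 5 windows in all. The ALCAM window lies at chr3:105366659-105366908 on the plus strand and holds the motif once, in capitals, beginning 109 bases before the start. The CDH2 window lies at chr18:28177131-28177380 on the minus strand and holds none.
ALCAM: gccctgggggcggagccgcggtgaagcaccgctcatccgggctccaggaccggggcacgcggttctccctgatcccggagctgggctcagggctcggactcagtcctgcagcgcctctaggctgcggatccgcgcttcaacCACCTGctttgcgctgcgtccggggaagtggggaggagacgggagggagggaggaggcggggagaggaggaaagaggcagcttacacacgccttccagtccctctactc
CDH2: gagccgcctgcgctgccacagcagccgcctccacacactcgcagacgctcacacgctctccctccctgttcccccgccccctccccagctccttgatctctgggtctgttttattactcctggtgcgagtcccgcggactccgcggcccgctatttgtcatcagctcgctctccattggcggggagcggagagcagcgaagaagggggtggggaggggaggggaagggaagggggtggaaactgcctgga
Both strands were searched, and CACCTG is CAGGTG read on the other strand. The other CDH2 window held no match, 1 of the 2 JUP windows held 2 and the other none. Of 35116 windows of this length, 17.5% held at least 1 match. Which start these cells use was not measured, and a match in a window describes its letters only.

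E-cadherin and N-cadherin, the classical pair, were both high. CDH1 (ENSG00000039068.13, GRCh37 chromosome 16 from 68771195 to 68869440, plus strand) stood at 52.0 RPKM in library 1 and 51.8 in library 2. CDH2 (ENSG00000170558.4, chromosome 18 from 25512843 to 25757910, minus strand) stood at 71.6 and 70.9 RPKM. In the listed RPKM, N-cadherin mRNA was thus above E-cadherin mRNA in both libraries, by 1.37-fold. The log2 ratio of CDH1 to CDH2 was -0.46 in library 1 and -0.45 in library 2. Exchanging the gene length as above gives a mean log2 ratio of -1.21, so the size rested on the length. The merged length is 2.14 times the longest transcript for CDH2 and 1.26 times for CDH1, so this exchange could only widen the difference. The opposite exchange was not run. It would move the ratio by the same amount the other way, which is more than the 1.37-fold difference. CDH1 would then stand above CDH2, so the direction rested on the length too. In a bulk sample, fewer cells of a type and less RNA per cell cannot be told apart, nor can cells that carry both cadherins and a mixture of cells that carry 1 each. CDH1 ranked above 97.1% of protein-coding genes and CDH2 above 98.0%. At the longest annotated transcript, the CDH1 value corresponds to 6304 reads in library 1, with a counting error of 1.26%.

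P-cadherin and K-cadherin were expressed at lower levels. CDH3, P-cadherin, a classical cadherin of placenta and basal epithelia (ENSG00000062038.9, chromosome 16 from 68670092 to 68761371), had 17.3 RPKM in library 1 and 17.0 in library 2. It lies 9823 bp before CDH1 on the same strand, and its level was 3.03-fold lower than that of CDH1. CDH6, K-cadherin, a type II cadherin known from kidney development (ENSG00000113361.8, chromosome 5 from 31193793 to 31329253), had 24.5 and 23.96 RPKM. That was 2.94-fold lower than CDH2 and at least 48.5-fold higher than CDH11, a type II cadherin of mesenchymal cells, which was under 0.5 RPKM in both libraries. Both genes stood well above the median of detected genes, CDH3 above 88.5% and CDH6 above 92.2% of protein-coding genes.

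CDH17, the liver-intestine cadherin of the 7D group (ENSG00000079112.5, chromosome 8 from 95139390 to 95229531), was the only one of the 9 not detected. It was listed under 0.5 RPKM in both libraries, so CDH1 was at least 104-fold higher. On the longest CDH17 transcript, 0.5 RPKM would be 46.2 reads in library 1, and transcription below that could not be seen. CDH16, the kidney member of the same group, was under 0.5 RPKM too. CDX1, a homeobox factor of the intestine, was under 0.5 RPKM in both libraries, while its relative CDX2 had 2.13 and 2.11 RPKM. VIL1, a brush-border protein listed as an intestinal marker, had 30.3 and 29.7 RPKM, and MUC2, LGALS4 and FABP2 were under 0.5.

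Most other cadherins of the family were not detected. Of 18 further cadherins (classical, type II and 7D, with CDH13 and CDH23), 2 reached 1 RPKM in both libraries (59.8% of all protein-coding genes did). Another 14 were under 0.5 in both. The 2 were CDH24, a type II cadherin, at 8.53 and 8.51 RPKM, and CDH10 at 1.61 and 1.75. CDH9 had 0.774 and 0.638 RPKM, and CDH13, T-cadherin, had 0.527 and 0.668. Those under 0.5 included CDH4, CDH5, the cadherin of endothelium, and CDH7. Summed over these 18 genes and the 5 cadherins named at the outset, CDH2 made up 40.5% of the RPKM, CDH1 29.5%, CDH6 13.8%, CDH3 9.74% and CDH24 4.84%. The first 4 together held 93.5%. Setting every gene under 0.5 to 0.5 changed the CDH2 share to 38.8%. Exchanging the gene length as above changed it to 52.4% and that of CDH1 to 22.6%.

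**Figure D2:**
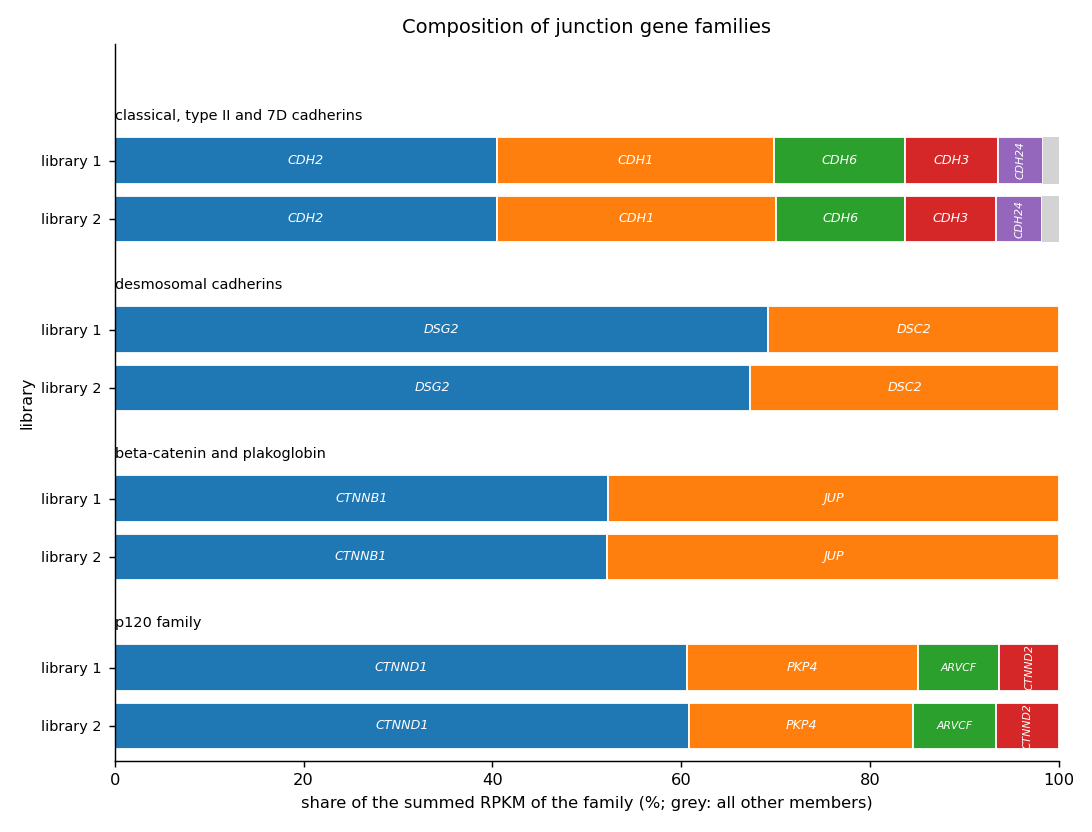
Share of each gene in the summed RPKM of 4 junction families (percent, horizontal axis) in each library (bars), with values under 0.5 RPKM counted as 0 and the smallest members in grey. CDH2 and CDH1 fill 70.0% of the cadherin bars, and the bars of the 2 libraries are nearly identical.

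The classical, type II, 7D and desmosomal cadherin genes of chromosomes 5, 16 and 18, with CDH13, were laid out in genome order. Other atypical cadherins and protocadherins were left out, and the view was chosen after the values were seen. On chromosome 16, CDH3 and CDH1 stood side by side as the 2 detected genes of 8. Before them CDH8, CDH11, CDH5 and CDH16 were under 0.5 RPKM, and after them CDH13 was at 0.598 RPKM on average and CDH15 under 0.5. TANGO6, the protein-coding neighbour 7993 bp beyond CDH1, had 1.24 and 1.27 RPKM, and ZFP90, 60116 bp before CDH3, had 4.57 and 4.77. On chromosome 5, CDH6 and CDH10 were detected of 5 genes, with CDH18 and CDH12 under 0.5 RPKM. On chromosome 18, CDH2 and the desmosomal genes DSC2 and DSG2 were detected of 11. The genes between DSC2 and DSG2, namely DSC1, DSG1, DSG4 and DSG3, were all under 0.5 RPKM.

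**Figure D3:**
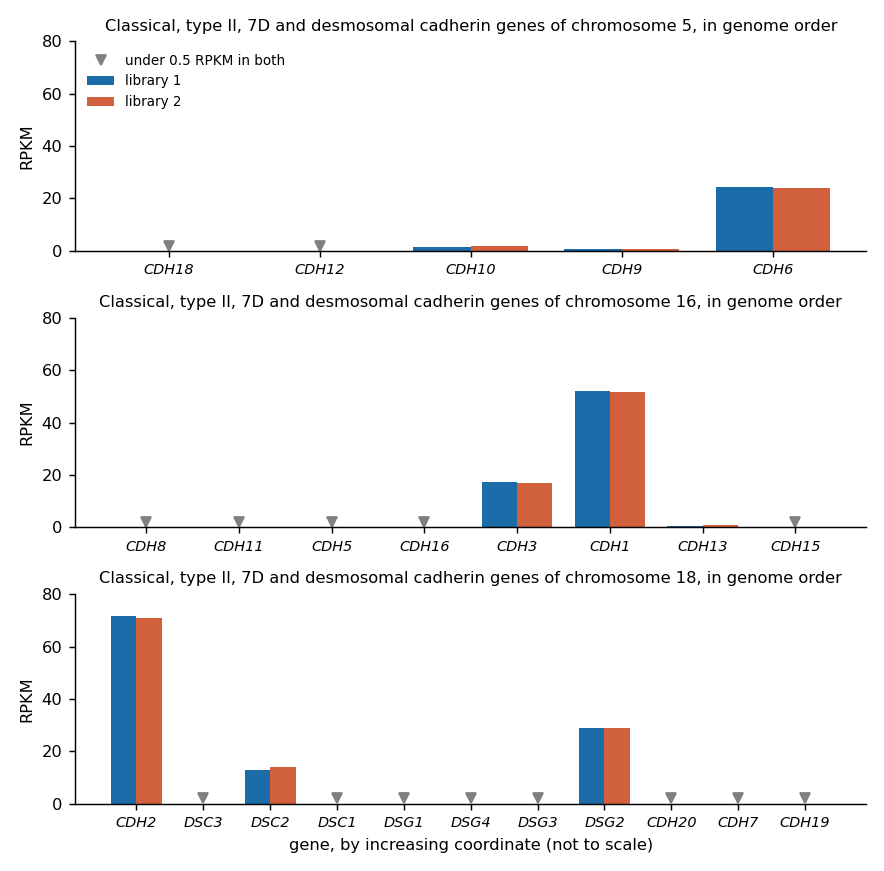
RPKM of classical, type II, 7D and desmosomal cadherin genes and CDH13 (vertical axis, linear) on chromosomes 5, 16 and 18 in library 1 and library 2 (bars). Genes are in order of coordinate and not to scale, with triangles for genes under 0.5 RPKM in both libraries. Detected genes stand among genes under 0.5 RPKM, as for CDH3 and CDH1 on chromosome 16.

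EPCAM, an epithelial adhesion molecule of hepatoblasts and bile duct cells, was the most abundant of the 9. EPCAM (ENSG00000119888.6, chromosome 2 from 47572297 to 47614740) had 124 RPKM in library 1 and 123 in library 2, and 205 protein-coding genes were higher. CLDN7, a claudin that binds EPCAM in the membrane, had 41.3 and 43.2 RPKM, 2.92-fold lower than EPCAM. Of 17 genes listed as partners or proteases of EPCAM, 14 reached 1 RPKM (82.4%, against 59.8% of all protein-coding genes). SPINT2 at 64.5 RPKM and SPINT1 at 58.8, both inhibitors of membrane serine proteases, were the highest, followed by CLDN7 and by NCSTN, a gamma-secretase subunit, at 31.3. ADAM10 (15.1 RPKM) and ADAM17 (7.43), sheddases chosen here after their values were seen, lay lower, and the tetraspanin TSPAN8 was under 0.5.

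ALCAM, also called CD166, is an immunoglobulin-domain adhesion molecule that binds itself and the lymphocyte receptor CD6. ALCAM (ENSG00000170017.8, chromosome 3 from 105085753 to 105295744) had 9.88 RPKM in library 1 and 10.1 in library 2, the lowest of the 8 detected genes, above 79.3% of protein-coding genes. CD6 was under 0.5 RPKM. The related MCAM had 1.07 and 1.09 RPKM, 9.25-fold lower than ALCAM, and NCAM1, a marker used for hepatic stem cells, was under 0.5, so ALCAM was at least 19.8-fold higher in library 1 and 20.2-fold in library 2. Among 17 immunoglobulin adhesion molecules, 8 reached 1 RPKM (47.1%, against 59.8% of all protein-coding genes) and 8 were under 0.5 in both libraries. BCAM, a laminin receptor, led with 80.9 RPKM, followed by the junction protein F11R with 53.8, VCAM1 with 10.4 and CXADR with 10.0. NCAM2 and L1CAM, known from neurons, were under 0.5. Of the nectins and nectin-like molecules, which start junctions beside cadherins, 7 of 9 (77.8%) reached 1 RPKM. NECTIN2 had 79.7 RPKM, CADM4 23.6, PVR 22.5 and NECTIN1 22.4, while NECTIN4 and CADM2 were under 0.5 and CADM3 had 1.68.

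Among 16 surface markers of progenitors that could be measured, 9 reached 1 RPKM in both libraries (56.25%, near the 59.8% of all protein-coding genes). DLK1 (477 RPKM) and GPC3 (461), both of fetal liver, were above EPCAM, while CD99 (97.2) and PROM1, the stem cell glycoprotein CD133 (26.3), were below it. CD44 and THY1 were under 0.5 RPKM, as was NCAM1. CD24 was not matched and has no value here.

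JUP and CTNNB1, which bind the end of the cadherin tail, lay between CDH1 and CDH2 in the listed RPKM. JUP, plakoglobin, a plaque protein of both adherens junctions and desmosomes (ENSG00000173801.12, chromosome 17 from 39910856 to 39943183), had 62.7 RPKM in library 1 and 62.4 in library 2. Beta-catenin, CTNNB1, had 68.6 and 68.0 RPKM, 1.09-fold above JUP on average. The libraries of the 2 genes did not overlap, but exchanging the gene length as above moved the log2 ratio of JUP to CTNNB1 from -0.13 to -0.90. JUP thus made up 47.8% of the summed RPKM of the pair, or 34.9% with the other length. CTNNA1, alpha-catenin, had 51.0 and 50.9 RPKM, whereas the neural and cardiac forms CTNNA2 and CTNNA3 were under 0.5. CDH1 was 1.32-fold lower than CTNNB1, a log2 ratio of -0.40 that becomes -1.33 with the other length. The opposite exchange, which was not run, would move the ratios of JUP and of CDH1 to CTNNB1 up by the same amounts. Both genes would then stand above CTNNB1, so these directions rested on the length. CTNNB1 was 1.34-fold above CTNNA1.

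CTNND1, p120-catenin (ENSG00000198561.8, chromosome 11 from 57520715 to 57587018), had 36.7 RPKM in library 1 and 36.9 in library 2. Its level is uncertain, because an annotated readthrough gene on the same strand (ENSG00000254732.1, chromosome 11 from 57509251 to 57572243) shares 1926 of its 2439 exon bases with CTNND1. That gene was listed at 46.5 and 45.9 RPKM, above CTNND1 itself. Added to CTNND1, it gives 83.1 and 82.8 RPKM, a sum chosen after the values were seen. The sum joins values scaled to unlike lengths, 2439 exon bases against 15212 merged exon bases of CTNND1. It is therefore not the level CTNND1 would have with the shared reads, and no rank is read from it. The sources used here do not say how reads were shared between overlapping genes. The only further gene that shares exon bases with 1 of the 9 on the same strand, the pseudogene DUX4L51 in CDH6, was under 0.5 RPKM.

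Antisense transcripts overlap the exons of 4 of the cadherins. The library protocol keeps the strand, but whether the counting used it is not stated, so reads of the partners may not be separated. The antisense RNA over CDH1 (ENSG00000260798) had 1.42 and 2.00 RPKM, far below CDH1. CDH3-AS1 was under 0.5 RPKM, and the antisense RNAs over CDH2 (ENSG00000227279) and CDH6 (ENSG00000254138) were under 0.5 in library 1, with 0.619 and 0.940 RPKM in library 2. The pseudogene HSPE1P5, inside CDH3 with no shared exon base, had 2.93 and 4.09 RPKM.

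The nearest protein-coding genes beside the 9 were mostly lower than the gene they flank. Most protein-coding genes would be, since even ALCAM, the lowest of the 8 detected, ranked above 79.3% of them. P3H4, next to JUP, had 22.2 and 23.0 RPKM, and HAP1 on its other side 0.507 and 0.651. CALM2, before EPCAM, had 27.5 and 27.2 RPKM. CBLB beside ALCAM had 3.87 and 3.94, and ZPLD1 was under 0.5. CHST9 beside CDH2 had 9.48 and 8.81 RPKM, DROSHA beside CDH6 had 11.6 and 10.9, and both neighbours of CTNND1, BTBD18 and OR9Q1, were under 0.5. The exceptions among those given here were CDH1, which lies beside CDH3 and was above it, and PDP1, which lies beside CDH17 and had 0.974 and 1.08 RPKM. GEM, on the other side of CDH17, was under 0.5.

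Relatives of p120-catenin were lower. CTNND2, delta-catenin of neurons, had 3.81 and 4.06 RPKM, 9.35-fold below CTNND1 (a log2 ratio of 3.23, or 3.92 with the other length), and ARVCF had 5.25 and 5.28, 6.99-fold below. PKP4, named after its value was seen, had 14.8 and 14.4 RPKM. CTNND1 made up 60.7% of the summed level of these 4 genes, without the readthrough gene. Of the 9 further catenins and p120 relatives listed, 7 reached 1 RPKM (77.8%, against 59.8% of all protein-coding genes). After CTNNB1 and CTNNA1 the highest were CTNNBIP1 at 19.4 and CTNNAL1 at 14.8.

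**Figure D4:**
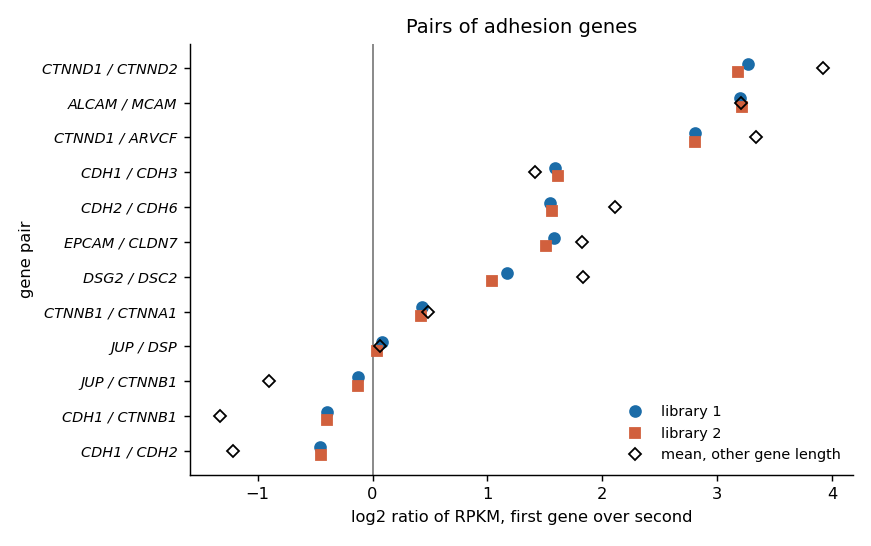
Log2 ratio of RPKM for the 12 gene pairs with both genes above 0.5 RPKM, in library 1 (circles) and library 2 (squares), with diamonds for the mean after exchanging merged exon length for longest transcript length. The ratio of CDH1 to CDH2 stays below 0 and the 9 ratios above 0 stay above it, while several diamonds lie far from their circles.

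Among the desmosomal partners of JUP, desmoplakin, DSP, which ties plakoglobin to keratin filaments, had 59.4 and 60.8 RPKM. JUP was 1.04-fold above it on average, less than the 1.05-fold spread between libraries of genes at like levels. DSG2 and DSC2, the desmosomal cadherins of simple epithelia, were the only 2 of 7 detected (28.6%, against 59.8% of all protein-coding genes). DSG2 had 28.8 and 28.7 RPKM and DSC2 12.8 and 13.9, a log2 difference of 1.11 that becomes 1.83 with the other length. The other 5, among them DSC1, DSC3 and DSG1 of stratified epithelia, were under 0.5. Of 7 desmosomal plaque genes, 5 reached 10 RPKM in both libraries, which 20.2% of all protein-coding genes did. After DSP came PERP at 48.9, PKP3 at 17.2 and PPL at 12.5, while PKP1 and EVPL, known from skin, were under 0.5.

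Genes that link cadherins to actin or move them through the cell were nearly all detected. Of 14 adherens junction linkers, 13 reached 1 RPKM (92.9%, against 59.8% of all protein-coding genes). They were led by ACTN4 at 84.3, EZR at 69.7, ZYX at 37.3 and VCL, vinculin, at 30.9. PLEKHA7, which binds p120-catenin, was the exception at 0.935 and 0.989 RPKM, and LIMA1 had 3.29. All 19 genes of cadherin endocytosis and signalling reached 1 RPKM, from the GTPase RHOA at 107 and the phosphatase PTPRF at 77.3 down to EGFR at 3.91 and the kinase FER at 1.79.

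The known repressors of CDH1 were mixed. Of 12, 5 reached 1 RPKM (41.7%, against 59.8% of all protein-coding genes) and 7 were under 0.5 in both libraries. TCF3, a broadly expressed E-protein, had 50.6 and 50.5 RPKM and SNAI1, Snail, 8.92 and 8.98. TCF4 had 3.15 RPKM and SNAI3 2.96. SNAI2, named after its value was seen, had 2.17 and 2.18. ZEB1, ZEB2 and TWIST1, which repress CDH1 in mesenchymal cells, were under 0.5. Of 15 epithelial maintenance factors, 11 reached 1 RPKM (73.3%, against the same 59.8%). FOXA2 (72.1 RPKM), HNF4A (44.7) and FOXA1 (39.7) led, followed by the splicing factor ESRP1 at 21.5. GRHL3, ELF5 and KLF4 were under 0.5. Across all lists, 115 of 182 further genes (63.2%) were detected, close to the 59.8% of the background. The 8 mesenchymal markers summed to 19.3 RPKM in library 1 and 19.6 in library 2, and 4 were detected. These were COL1A1 (8.29 RPKM on average), COL1A2 (5.13), LUM (3.27) and PDGFRB (2.14). COL3A1, DCN and THY1 were under 0.5 in both libraries and ACTA2 in library 1, with 0.562 in library 2. The part of other cell types in the levels above was not tested.

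**Figure D5:**
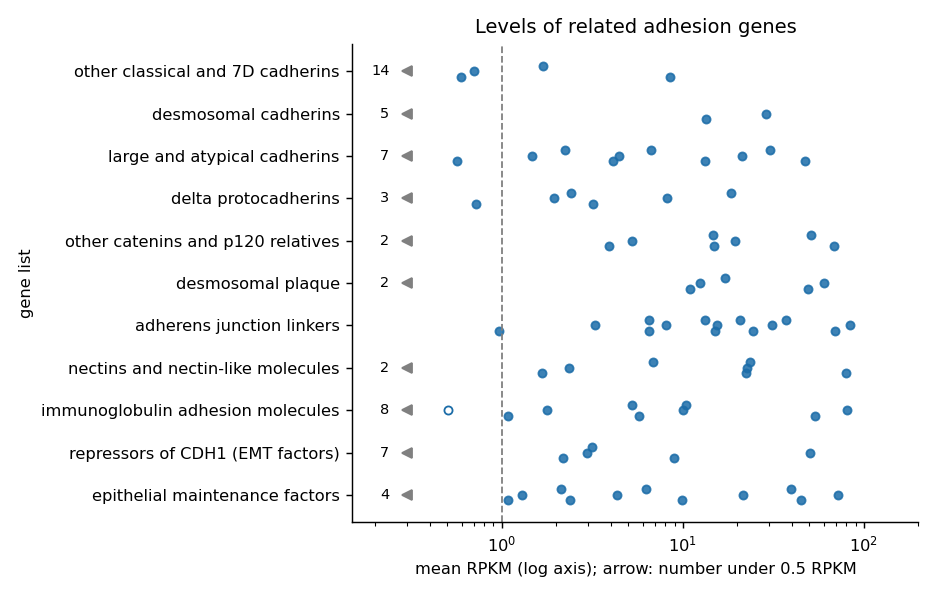
Mean RPKM (log axis) of each gene in 11 lists of related genes, with a dashed line at 1 RPKM, an open circle for a gene above 0.5 RPKM in 1 library, and an arrow with the number of genes under 0.5 in both. The row of other cadherins has 14 genes at the arrow and its highest gene at 8.52 RPKM, while the linker row has none at the arrow.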

How the data were processed

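Levels came from 1 deposited table of RPKM values for 57158 versioned Ensembl genes in 2 libraries. The authors scaled these RPKM by gene length and library depth. No value lies between 0.1 and 0.5, and 39548 and 39542 values equal 0.1. Cufflinks 2.2.0, STAR 2.3.0e, FastQC 0.10.1 and the build hg19 are listed, without roles, in the submitters' processing notes, and the series design names Sailfish. Which tool and annotation gave the RPKM is not given in the sources used here. Values of single-exon genes step by whole reads (82.9% and 82.7% within 0.02 of a read), which gave the depths. Genes of several exons did not, so no counts were rebuilt and no count model was used.

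Identifiers were joined without version to GENCODE release 44 on GRCh37, and 95.2% matched. The background was 19344 protein-coding symbols, each with its identifier of highest mean. Detection was 1 RPKM in both libraries. Comparisons are ratios of RPKM per library. Members, 14 further lists, 17 pairs and 9 marker lists were chosen with earlier results of these data known. Named genes are the members, both genes of each pair, the 4 highest and 3 lowest of each list (ties in list order), and genes overlapping or next to a member; others are said to be chosen after their values were seen, or are markers. Some named genes are not reported here. No pattern likeness was computed, since 2 libraries of 1 group give none. Alternatives changed the detection limit, pseudocount, scaling, gene length, background and libraries. The agreement statistic was tested on simulated data. Analysis used Python 3.11.15, pandas 2.3.3 and numpy 2.4.6.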

Additional observations from a re-analysis of the deposited data

How the results depend on the processing

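The count of 8 detected genes of 9 was the same at limits of 0.5 and 5 RPKM and without either library. Summing identifiers could not change it, since each gene has 1. Rescaling the libraries to a fixed sum of protein-coding genes raised all levels by 2.04 on the log2 scale in both libraries. It left the count at 8 but could not have lost a detected gene. In 9 of the 12 pairs with a ratio the first gene was higher under each alternative run, and no direction reversed. The gene length was exchanged only from merged exons to the longest transcript. The opposite exchange was not run. By the annotated lengths it would turn the direction of CDH1 to CDH2, of JUP to CTNNB1 and of CDH1 to CTNNB1. The median percentile of the 9 genes, 95.4 among protein-coding genes, was 92.3 among detected ones and 97.7 among all genes, and 95.38 to 95.39 with 1 library. Of the further listed genes, 115 were detected at 1 RPKM, 120 at 0.5 and 85 at 5. At 5 RPKM the count fell from 2 to 1 for other cadherins, from 9 to 5 for atypical cadherins, from 5 to 2 for delta protocadherins, from 5 to 2 for CDH1 repressors and from 11 to 6 for epithelial factors; at 0.5 RPKM other cadherins rose to 4. No paired analysis was possible because the series holds 1 group. Genes under 0.5 RPKM may still be transcribed.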

Other observations

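The large and atypical cadherins and the protocadherins, which act in planar polarity and cell sorting, were expressed in part. Of 17 large and atypical cadherins, 9 reached 1 RPKM (52.9%, near the 59.8% of all protein-coding genes). Another 7 were under 0.5 in both libraries. CLSTN1, a calsyntenin, had 47.5 RPKM in library 1 and 47.2 in library 2, a level close to that of CDH1, and CLSTN3 had 30.1 and 30.8. DCHS1, the partner of FAT cadherins, had 21.2 and 21.4 RPKM and FAT1 13.2 and 13.4, while FAT2, DCHS2 and CLSTN2 were under 0.5. FAT4, named after its value was seen, had 0.623 and 0.512 RPKM and was not detected. Of 9 delta protocadherins, 5 were detected (55.6%, also near the background), led by PCDH17 at 18.2 and 18.6 RPKM, slightly above CDH3. PCDH7 had 8.20 and 8.23 RPKM, and PCDH9, PCDH11X and PCDH19 were under 0.5.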
